A study of Mus musculus with 2 samples.

Results

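Among 1579 fibroblasts of the control wound library, 50 cells carried UMIs of at least 4 of the 8 genes Cst6, Trf, Gcg, Apod, Meox1, Epyc, Tenm2 and Etv1. These 50 cells, called the rule cells here, were 3.17% (exact binomial 95% interval 2.36 to 4.15%) of the control fibroblasts and 1.75% of the 2856 control barcodes kept. Cells were first kept when at most 10% of their UMIs (molecules counted once by their molecular identifier) were mitochondrial, which removed 22 of 2878 control barcodes. A fibroblast had at least 10 UMIs of Pdgfra, Lum, Dpt, Lox and Postn together per 10000 and at most 2 UMIs of Pecam1, Sox10, Rgs5 and Ptprc together. The rule cells were chosen by measured values, so all comparisons with the other 1529 control fibroblasts describe the selection and carry no test. The whole series held 4680 barcodes.

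The study profiled sorted Tomato+ cells from the dermis of healing back wounds of mice by single-cell RNA sequencing, with 1 library for control and 1 for SM22-SmoM2. Control mice carried SM22rtTA, tetO-Cre and R26-Tomato, and SM22-SmoM2 mice carried SM22rtTA, tetO-Cre and R26-SmoM2 together with Tomato, so that an activated Smoothened was made in the same cells. Both groups were 4 to 5 weeks old and were fed doxycycline at 20 g/kg from the first day after wounding until 3 days past wound closure. The SM22α (Tagln) promoter, active in contractile wound fibroblasts and in vessel wall cells, limited which cells were labelled, and mice were pooled within a library. With 1 pooled library per group, no replicate spread between mice could be measured, and all intervals cover counting error only.

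Wound fibroblasts secrete and remodel the collagenous matrix of the new dermis, and many pass through a contractile state marked by smooth muscle actin and transgelin. Connective tissue also wraps peripheral nerves in layers, with endoneurial fibroblasts inside the fascicle, a perineurial sleeve around it and epineurial fibroblasts outside. The 8 genes have separate known roles: Cst6 encodes a secreted inhibitor of cysteine proteases, Trf the iron carrier transferrin, Gcg the precursor of glucagon and GLP-1, Apod a lipocalin, Meox1 a homeobox factor, Epyc a small leucine-rich proteoglycan, Tenm2 a teneurin adhesion receptor and Etv1 an ETS factor.

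The rule cells held 629013 UMIs, with 3738 to 54087 per cell and a median of 12647.5, while the other fibroblasts held 16470748 UMIs with a median of 9306 per cell. Their median of 3514.5 genes per cell also exceeded the 2922 of the other fibroblasts. After thinning to 3000 UMIs per cell the medians were 1433.5 and 1421 genes. When the rule was applied after that thinning, it found 32 cells, or 2.03% (1.39 to 2.85%) of the fibroblasts. The number of fibroblasts was highest at 1 rule gene and had a shallow dip at 4. No rule gene was detected in 402 cells, 1 in 896, 2 in 203, 3 in 28, 4 in 9, 5 in 14, 6 in 18, 7 in 8 and all 8 in 1 cell.

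**Figure D1:**
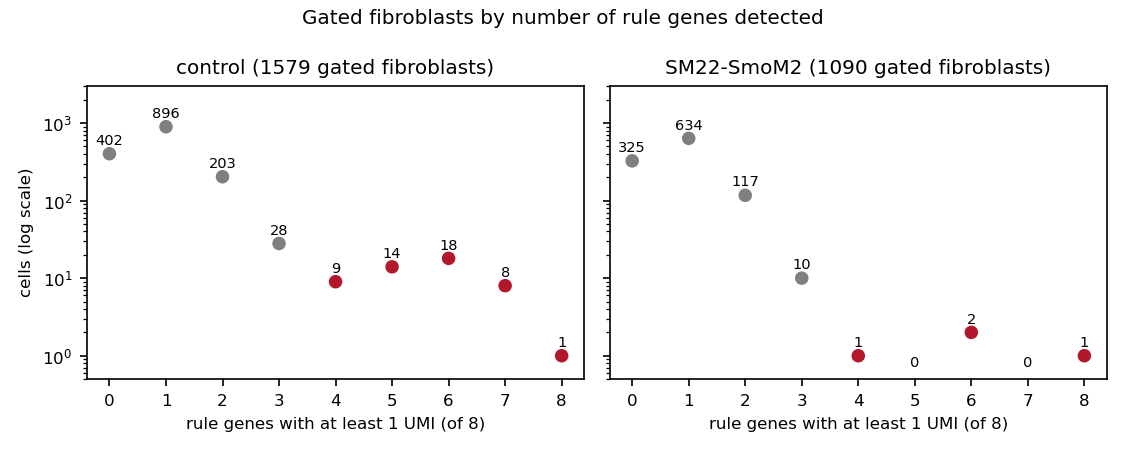
Number of fibroblasts (log axis) by how many of the 8 rule genes had at least 1 UMI, in the control and SM22-SmoM2 libraries. In the control library the counts fall from 896 cells at 1 gene to 9 at 4, rise to 18 at 6 and end at 1 cell with all 8.

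The control fibroblasts were also clustered without the rule genes and the gate genes. The same cells were used and genes that vary with the rule genes remained, so the clusters are a description and no independent check. Of the 50 rule cells, 44 (88%) fell in 1 cluster of 51 cells, and the other 7 cells of that cluster were 6 cells with 3 rule genes and 1 cell with 1. The median rule cell had 18 rule cells among its 20 nearest neighbours. Cells with 5 or more rule genes were in the cluster in 40 of 41 cases, those with 4 genes in 4 of 9, and those with 3, just outside the threshold, in 6 of 28. Thbs4, a thrombospondin that the rule did not use, stood at 367 CPM (UMIs of the gene per 1000000) in cells with 3 rule genes, at 580 with 4 and at 1543 with 5. Without the 4 lone barcodes described next, the 5 remaining cells with 4 genes held Thbs4 at 1365 CPM. Postn, a gate gene, went from 2704 CPM with 3 genes and 2372 with 4 to 230 with 5, and stood at 1252 CPM in the same 5 cells, so the lone barcodes moved both values.

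Among the rule cells, 4 lone barcodes had no rule cell among their 20 nearest neighbours, and each had exactly 4 rule genes. The first, with 26361 UMIs, held 757 UMIs of a list of keratinocyte genes, while the next richest rule cell held 4 and 28 rule cells held none. The second, with 54087 UMIs, held 250 Postn and 87 Dpt UMIs, and the third, with 12596 UMIs, held 32 Dpt UMIs. The last, with 8598 UMIs, had no Dcn UMI and 1 Lum UMI, beside 24 UMIs of Schwann genes and 18 of endothelial genes. The doublet caller marked 5 control barcodes and 0 rule cells. The first and the last lone barcode held both Y-linked UMIs and Xist, the sex-linked transcripts described below. For some genes that leaving out the 4 lone barcodes moved, the log2 ratio in the other 46 rule cells is given second, after the words 46 cells.

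As fibroblasts, the 50 cells were rich in the proteoglycans lumican and decorin and poor in the wound matrix genes of the gate. Lum, which binds collagen fibrils, ran from 1.16 to 251 UMIs per 10000 with a median of 124, and its summed level was 12302 CPM against 3178 CPM in the other fibroblasts, a log2 ratio of 1.95 (1.92 to 1.99). Dcn, another fibril-binding proteoglycan and no part of the gate, stood at 17831 against 5665 CPM. Postn, the matricellular protein periostin, had a median of 1.48 per 10000 against 30.4 in the other fibroblasts, and 19 rule cells had none. In the 46 cells the Postn log2 ratio went from -2.53 to -3.99. Dpt, encoding dermatopontin, was absent from 39 of 50 rule cells, and without the lone barcodes its log2 ratio was -5.58. The collagen cross-linking enzyme Lox had a log2 ratio of -2.62 (46 cells -3.61), and Pdgfra, the receptor that marks most fibroblasts, one of 0.76. Through Lum alone, 43 of the 50 cells passed the gate. Of 12 fibroblast markers, 2 (Lum and Dcn) were at least 2-fold higher and 4 (Dpt, Lox, Postn and Col1a2) lower in the rule cells, beside 6.45% higher and 13.8% lower over all genes tested. The gate used Lum, Dpt, Lox and Postn, so nothing is read from this count.

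The other fibroblasts were themselves mixed. Of these, 526 (34.4%) had fewer than 20 Dcn UMIs per 10000, with a median of 5899 UMIs per cell. All but 1 of the rule cells had at least 20. The comparison was therefore also made with the 1003 other fibroblasts above that level, called Dcn-rich here, against the 49 rule cells above it. This limit was set after the values had been seen.

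The rule genes were present at very unequal levels from cell to cell, as the selection on any 4 of them allowed. Cst6 was detected in 46 of 50 rule cells, from 0 to 38.5 UMIs per 10000 with a median of 6.80, and summed to 870 CPM (798 to 946) against 3.46 CPM in the other fibroblasts. Gcg was detected in 47 cells, from 0 to 27.4 with a median of 4.08 per 10000, and summed to 525 CPM (470 to 584) against 2.79. Meox1 was detected in 47 cells with a median of 3.60 and a highest value of 16.6 per 10000, and summed to 391 against 11.8 CPM. These 3 genes were thus spread over nearly all rule cells. Apod was detected in 49 cells but ran from 0 to 1171 UMIs per 10000 with a median of 16.1, and 5 cells held 60.3% of its UMIs. Its summed level was 10935 CPM against 234.

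Trf and Epyc were each held by fewer cells. Trf was detected in 24 rule cells, with a median of 0 and a highest value of 183 UMIs per 10000, and 5 cells held 78.9% of its UMIs. It summed to 882 CPM (810 to 959) against 6.37. Reads of Trf may be shared with Gm20425, which overlaps it on the same strand. Epyc was detected in 6 cells, with 26, 22, 17, 17, 11 and 2 UMIs, and summed to 151 CPM against 0.364. Tenm2 was detected in 34 cells at a median of 0.745 per 10000 and summed to 70.0 against 0.425 CPM. Etv1 was detected in 25 cells and summed to 65.2 against 12.1 CPM, a log2 ratio of 2.42 (1.90 to 2.92) that became 4.38 against the Dcn-rich fibroblasts, 1.48 with the same cells thinned to 3000 UMIs and 1.88 by the mean of per-cell CPM.

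**Figure D2:**
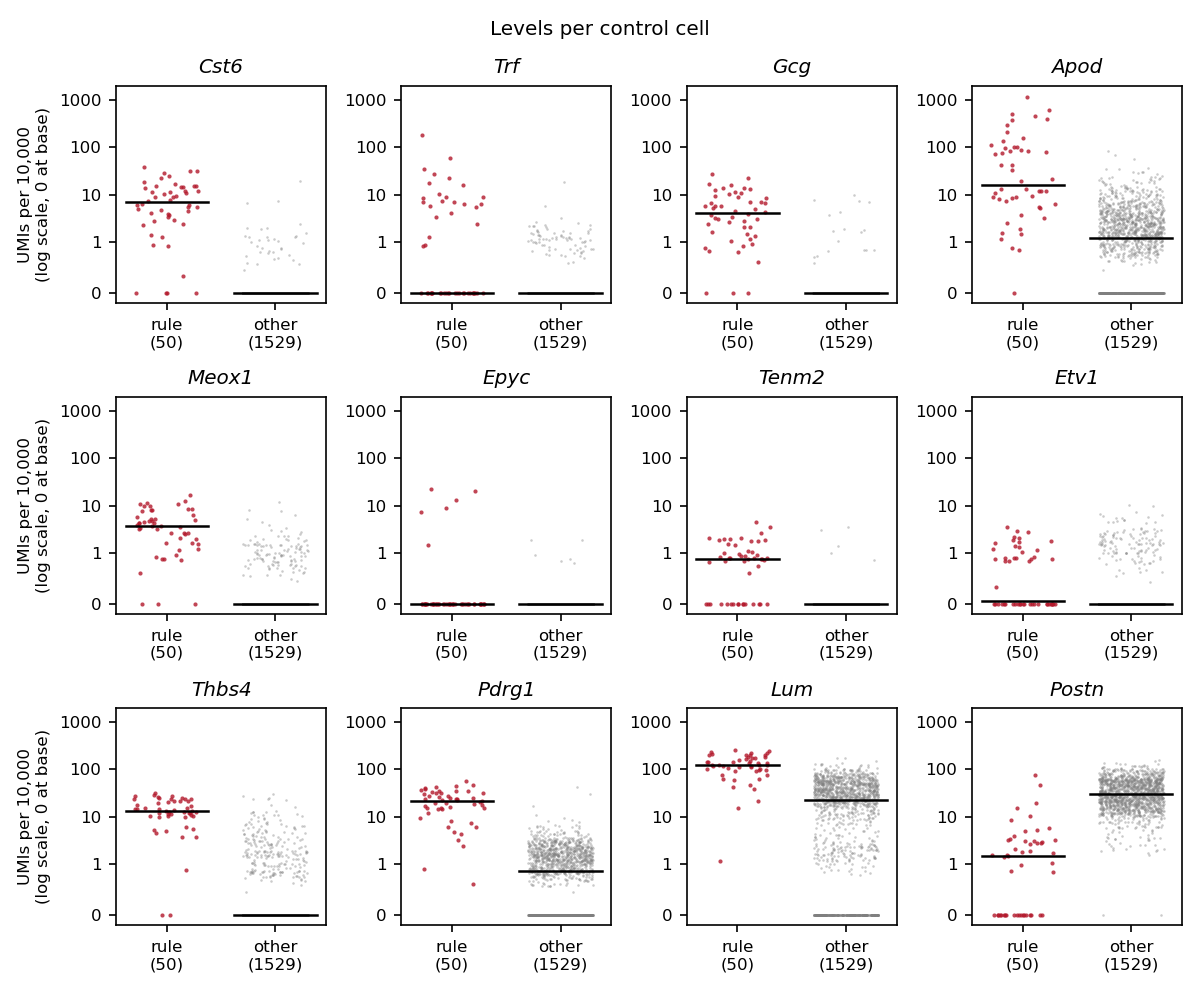
UMIs per 10000 (log axis with 0 at the base) in each rule cell and each other control fibroblast, with the median as a bar, for the 8 rule genes and Thbs4, Pdrg1, Lum and Postn. Cst6, Gcg and Meox1 are spread over most cells, whereas Trf and Epyc are at 0 in most and high in a few.

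When each rule gene was set aside and the cells were chosen by at least 4 of the other 7, the gene set aside was still high. Cst6 was then detected in 90.9% of 44 cells, at a log2 ratio of 7.69 to the other fibroblasts. Gcg was detected in 93.0% of 43 cells (7.09), Apod in 97.6% of 42 (5.89) and Meox1 in 92.9% of 42 (5.09). The corresponding shares were 67.3% for Tenm2, 45.8% for Trf, 45.7% for Etv1 and 12% for Epyc. All were counted in the same cells as the rule, so these values remain descriptions.

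The shares of cells with each rule gene were also read with all cells thinned to 3000 UMIs. They were set beside 573 control cells with over 2 Pecam1 UMIs, a marker of endothelium. The rule cells and the other fibroblasts were separated by UMIs of these same genes, so the selection largely set the contrast between them. Pecam1 cells may express rule genes themselves, so their shares do not measure free RNA. The part of free RNA was not tested. The median depth before thinning was 12647.5 UMIs in rule cells and 9597 in the Pecam1 cells. Cst6 was then detected in 80% of rule cells, 1.18% of other fibroblasts and 1.57% of Pecam1 cells. For Gcg the shares were 66%, 0.523% and 0.175%, and for Apod 86%, 38.5% and 2.97%. Meox1 was at 66% in rule cells and 2.68% in other fibroblasts, but at 41.0% in Pecam1 cells. Tenm2 was found in 30% of the rule cells, 0.196% of other fibroblasts and none of the 573 Pecam1 cells. Etv1 was found in 16%, 4.58% and 1.22%, Trf in 40%, 2.29% and 2.97%, and Epyc in 12%, 0.131% and none. In 25 control cells with over 2 Sox10 UMIs, a Schwann marker, at a median depth of 10883 UMIs, the Etv1 share was 16% (4.54 to 36.1%), the same as in the rule cells. Apod was found in 48% of these 25 cells and Trf in 4%, and the other 5 rule genes in none. In 13 control cells with over 2 Ptprc UMIs, a marker of immune cells, at a median depth of 9613 UMIs, Trf was found in 30.8% (9.09 to 61.4%), an interval that includes the 40% of the rule cells.

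Across all genes, 10876 had at least 50 UMIs over the rule cells and the other control fibroblasts together. Of these, 702 were at least 2-fold higher in the rule cells (6.45%) and 1497 at least 2-fold lower (13.8%), and the median log2 ratio was -0.04. The 95% counting interval lay wholly on that side of 0 for 567 and 802 of them. Of the 340 tested genes with no UMI in the rule cells, 69 were among the lower genes, with a ratio taken from a floor of 3 UMIs over the group. Against the Dcn-rich fibroblasts 756 of 10165 genes were higher (7.44%) and 1229 lower (12.1%), of which 554 and 1053 were also called in the first comparison. In the 46 cells without the lone barcodes, 812 genes were higher (7.48%) and 1631 lower (15.03%). All 8 rule genes were among the higher genes, as their choice required.

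**Figure D3:**
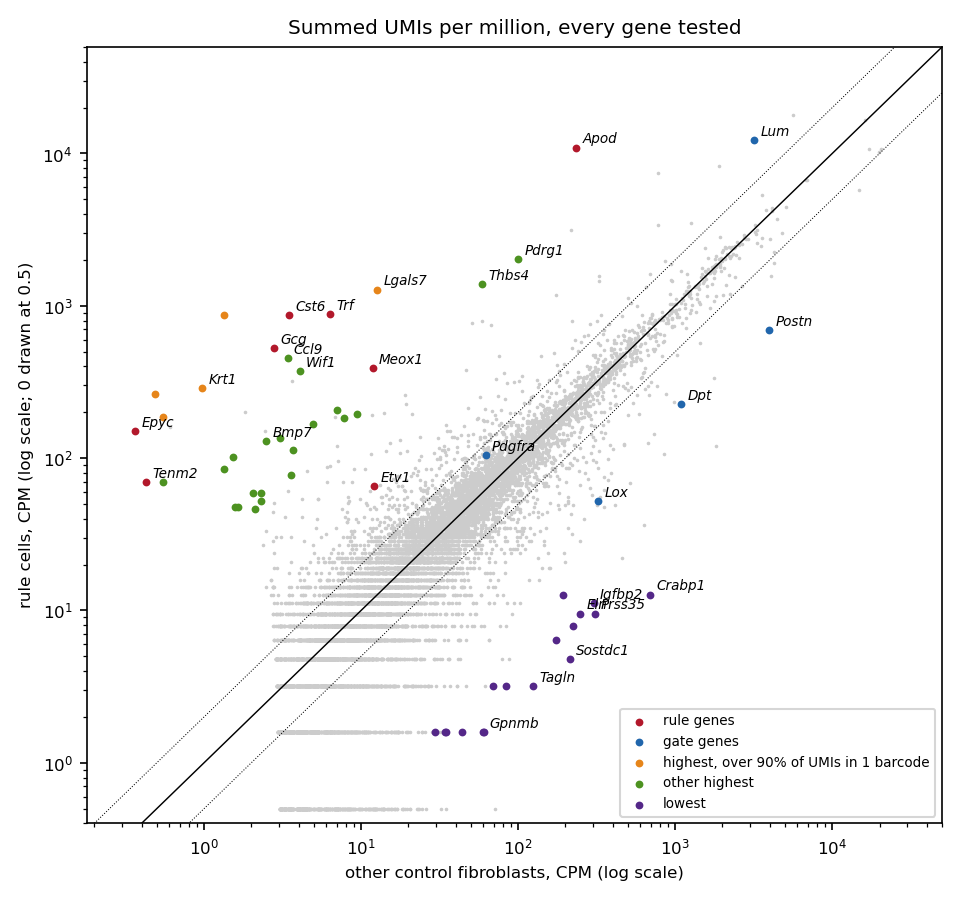
Summed CPM of each tested gene in the rule cells (0 drawn at the base) against the other control fibroblasts, both on log axes, with the named genes marked. The rule genes, Ccl9, Wif1 and Thbs4 lie far above the diagonal and above the dotted 2-fold line, and Crabp1 and Tagln lie far below it.

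Of the 20 genes with the highest ratios outside the rule, 5 had over 90% of their rule-cell UMIs in the keratinocyte-rich barcode. BC100530, a stefin gene with close paralogs among which reads may be shared, had 543 of its 547 UMIs there, and its log2 ratio of 9.35 became 2.31 without that barcode. Stfa3, another stefin, went from 9.09 to 1.77 and the keratin gene Krt1 from 8.22 to 0.77. The others were Ly6d, with 117 of 118 UMIs there, and the galectin Lgals7, which went from 6.65 to 2.42. In all, 25 of the 702 higher genes had most of their UMIs in 1 cell, and 15 of these had them in this barcode.

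The other 15 of the 20 were not led by that barcode. Ccl9, a chemokine, was detected in 34 of 50 rule cells and 26 of 1529 other fibroblasts, with a median of 1.87 and a highest value of 27.9 UMIs per 10000. Its summed level was 456 CPM (405 to 512) against 3.40 CPM, a log2 ratio of 7.07 (6.65 to 7.51). Wif1, a secreted Wnt inhibitor, was detected in 27 cells up to 27.8 per 10000 and summed to 374 against 4.07 CPM, a log2 ratio of 6.52 (6.12 to 6.94). Bmp7, a bone morphogenetic protein, was detected in 33 cells with a median of 1.22 per 10000 and summed to 129 against 2.49 CPM, a log2 ratio of 5.69. Foxd1, a forkhead factor of stromal cells, was detected in 26 cells with a log2 ratio of 5.98, and the nucleotide-sugar receptor P2ry14 in 30 cells with 6.07. These genes were each held by at least 26 of the rule cells.

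Thbs4, last by ratio among the 20, was the most widely detected of them, in 48 rule cells from 0 to 31.6 per 10000 with a median of 12.9. It summed to 1391 against 58.6 CPM, a log2 ratio of 4.57 (4.44 to 4.70). Paqr5, a membrane progestin receptor, stood at 70.0 against 0.546 CPM, and the phosphatase Alpl (4.86) and the SoxE factor Sox8 (4.67) were detected in 17 and 20 rule cells. The list also held 6030408B16Rik (5.48), Rasgrp2 (5.09), Vit (4.93), Anks1b (4.92) and Nipal1 (4.89), and Areg (4.83), of whose 37 UMIs 32 lay in 1 cell. Without the keratinocyte-rich barcode the same ranking added 6 genes. Pdrg1 was detected in all 50 rule cells, from 0.370 to 55.8 per 10000, at 2030 against 100 CPM and a log2 ratio of 4.34. Cp, encoding the ferroxidase ceruloplasmin, was detected in 36 cells (4.56), and the collagen gene Col26a1 in 36 (4.38). The rest were Galnt12 (4.51), Sult5a1 (4.44) and Abca6 (4.44).

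Abundant secreted and surface products, chosen here after their values had been seen, were detected in nearly every rule cell. Gsn, the actin-severing protein gelsolin, had from 3.49 to 193 UMIs per 10000 with a median of 76.2 and summed to 7474 against 776 CPM (3.27). Tgfbi, a TGF-beta-induced matrix protein, ran from 1.14 to 79.1 with a median of 30.6 and summed to 3165 against 218 CPM (3.86). Itm2a, a membrane protein, had a median of 96.6 per 10000 and summed to 8214 against 1905 CPM (2.11). All 3 genes were detected in all 50 rule cells. The growth factor Igf1 (2.25), the glypican Gpc3 (2.76) and the surface sialomucin Cd34 (2.14) were detected in 48 to 50 of them.

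Genes of contractile and papillary fibroblasts were among the 12 with the lowest ratios. Crabp1, a retinoic acid binding protein of upper dermal fibroblasts, was detected in 6 of 50 rule cells and 609 of 1529 others, at 12.7 against 691 CPM and a log2 ratio of -5.76 (-6.98 to -4.78). Tagln, whose promoter drove the labelling transgene, had 2 UMIs in the rule cells, 3.18 against 124 CPM, a log2 ratio of -5.29 (-8.33 to -3.43). Prss35 (-5.01) and the matrix metalloproteinase Mmp11 (-4.80, 46 cells -5.87) were each held by 4 rule cells. Elastin, Eln (-4.70, 46 cells -7.03), was held by 3 and the IGF binding protein Igfbp2 (-4.77) by 6. With 3 or more rule genes the Eln ratio was -0.28, short of 2-fold. Gpnmb had -5.23 (-10.54 to -2.75), with 1 UMI that lay in the keratinocyte-rich barcode. These 7 genes were at least 2-fold lower against the Dcn-rich fibroblasts as well.

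The remaining genes of the lowest 12 depended on the fibroblasts compared. Sostdc1 had a log2 ratio of -5.48 against all other fibroblasts and -0.92 against the Dcn-rich ones, Gfra3 -5.25 and -0.62, and Egfl8 -4.78 and -1.04. Mal (-4.79) and Fgf5 (-4.73) had no ratio against the Dcn-rich cells. There, Creb3l3 (-4.52), Rbp4 (-4.74), H2-Aa (-4.60) and Ctla2a (-4.64) took places among the lowest 12.

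Nerve-associated genes were grouped by the layer of the nerve they are known from. Of 13 tested endoneurial fibroblast genes, 10 were higher and 1 lower, beside 6.45% and 13.8% of all genes, with a median log2 ratio of 2.14 against -0.04 over all tested genes. This list was drawn up with results of these data known, so its direction is no independent evidence. Its summed level per rule cell ran from 3.33 UMIs per 10000 to just under 95, with a median of 37.9, against a median of 7.32 in the other fibroblasts. Against the Dcn-rich fibroblasts 12 were higher and 0 lower, beside 7.44% and 12.1% of all genes there. The median was 3.10 beside 0.01 over all genes tested there. Beside Wif1, Sox8 and Col26a1, the higher genes were the eosinophil chemokine Ccl11 (798 against 58.5 CPM, 3.77), the chemokine Cxcl14 (378 against 46.6, 3.02), the cell cycle inhibitor Cdkn2a (196 against 20.9, 3.22), osteopontin, Spp1 (2.14), Sox9 (1.87), Osr2 (1.57) and the transporter Abca9 (1.83). Matn2, a matrilin of nerve matrix and the most abundant member, stood at 858 against 462 CPM (0.90). The neurotrophin receptor Ngfr had a log2 ratio of 0.30 against all and 3.86 against the Dcn-rich fibroblasts, and the sodium channel Scn7a -1.45 and 0.73. Col2a1 was under the test limit, with 25 UMIs in 14 rule cells and 2 UMIs in the others.

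The other nerve layers were read beside the shares over all genes, 6.45% higher and 13.8% lower. Of 7 perineurial genes tested, 1 was higher, the tight junction gene Cldn1 (70.0 against 6.07 CPM, 3.53), and 3 were lower, while Msln, Krt19, Cldn22 and Tenm1 were at 0. Against the Dcn-rich fibroblasts 2 of 5 perineurial genes were higher and 1 lower, beside 7.44% and 12.1% of all genes there. Their median there was 0.81 in place of -0.44. The perineurial glucose transporter Slc2a1 had a log2 ratio of 0.01. Of 11 epineurial or adventitial genes, Cd34 was higher and 7 were lower, among them Clec3b (-1.72, 46 cells -6.53) and Ly6a (-2.05, 46 cells -5.42). Pi16 had a log2 ratio of -0.33. Of 13 Schwann genes none was higher and 12 were lower, with Sox10, Ncmap and Dhh at 0 and a summed level of 243 against 1185 CPM. Against the Dcn-rich fibroblasts only 3 Schwann genes were tested, with 1 higher and 1 lower, beside the same 7.44% and 12.1%. Sox10 was limited by the gate, and the Dcn-rich fibroblasts held 246 CPM of this list, with Pmp22 the most abundant member in the rule cells (165 CPM).

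**Figure D4:**
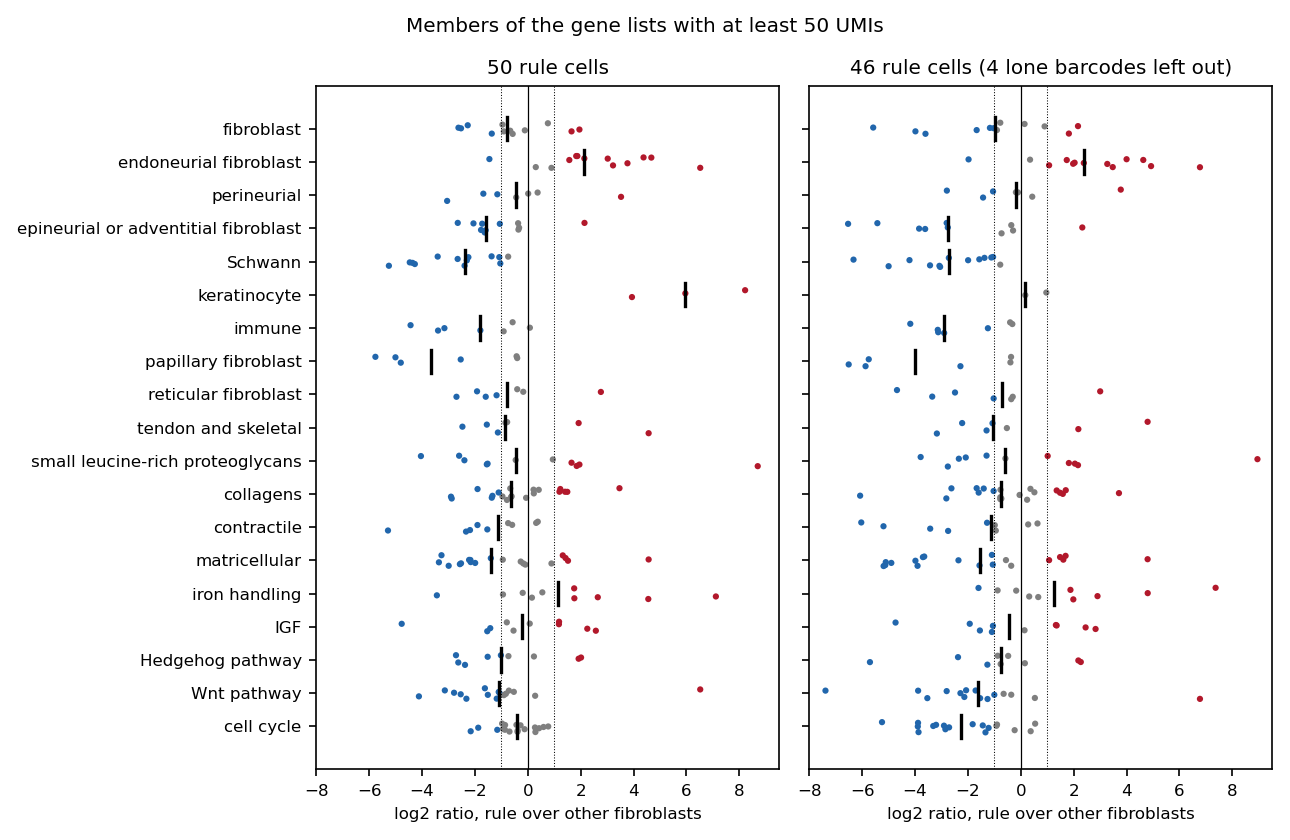
Log2 ratio of each tested gene (dots), rule cells over other control fibroblasts, by gene list, with the median of the list as a bar, for all 50 rule cells (left) and for 46 (right). Red and blue mark genes at least 2-fold higher or lower. Endoneurial genes lie mostly above 0 with a median of 2.14, Schwann genes below with a median of -2.39, and papillary genes at a median of -3.67.

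Markers of other cell types were read beside 6.45% higher and 13.8% lower over all genes (7.48% and 15.03% in the 46 cells). Of 9 endothelial genes 1 was higher (Egfl7, 27 UMIs, 1.11) and 1 lower, and in the 46 cells none was higher and 3 were lower. Of 7 mural cell genes 1 was lower (1 higher and 1 lower in the 46 cells), and Myh11, Abcc9, Des and Higd1b were at 0. Of 7 immune genes 4 were lower, Ptprc, Laptm5 and Cd3e were at 0, and the list summed to 41.3 against 205.6 CPM, with Lyz2 the most abundant at 14.3 CPM. All 3 tested keratinocyte genes were higher, with a summed 1261 against 56.8 CPM and Krt10 the most abundant, but the sum was 59.7 CPM without the keratinocyte-rich barcode, and Krt5 and Krt15 were at 0. Whether RNA of other cells contributed to the level of single genes was not tested.

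Genes of named dermal fibroblast classes were read beside the same 6.45% higher and 13.8% lower. Of 6 papillary genes none was higher and 4 were lower, with a summed 65.2 against 1261 CPM. Of 8 reticular genes Gpc3 was higher and 4 were lower, including the imprinted gene Dlk1 (194 against 584 CPM, -1.59, 46 cells -4.68) and Mest (-2.70). Of 6 dermal sheath genes Abi3bp (491 against 169 CPM, 1.54) and Col11a1 (1.49) were higher, while 3 were lower, among them Acta2 (-1.90, 46 cells -5.19) and Tagln. Of 6 dermal papilla genes Alpl was higher and Sox2 lower (2 UMIs, -3.01). Against the Dcn-rich fibroblasts 1 of 5 dermal papilla genes was higher and 0 lower, beside 7.44% and 12.1% of all genes there. Their median there was 0.13 in place of -0.58. Among 7 tendon and skeletal genes Thbs4 and Sox5 (11 UMIs, 1.92) were higher, the tenocyte gene Tnmd, Runx2 and Fmod lower, and the tendon factor Scx was at 0.

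Sets of 3 genes that led other groups of control fibroblasts, chosen with earlier results of these data known, were also counted beside 6.45% higher and 13.8% lower over all genes. Crabp1, Mmp11 and Prss35 were all lower, as were Mmp3 (-1.74, 46 cells -7.13), Wisp2 (-2.22, 46 cells at most -3.70 with 0 UMIs) and Clec11a (9.54 against 38.2 CPM). Of Wnt2, Dlk1 and Pamr1 the first pair were lower and Pamr1 had -0.34. Of Agtr2, Angptl1 and Thbs4 only Thbs4 was higher, Angptl1 was lower (49.3 against 198 CPM) and Agtr2 had -0.64 with 6 UMIs (46 cells at most -1.38 with 0 UMIs).

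Matrix genes differed by family member. Of 20 collagens 5 were higher and 6 lower, with a median of -0.62, beside 6.45% and 13.8% of all genes tested. This list did not hold Col26a1, whose log2 ratio of 4.38 was above that of every tested collagen in it. The higher ones in the list were Col15a1 (742 against 67.1 CPM, 3.47) and Col18a1 (576 against 251), which encode basement membrane zone collagens, with Col8a1 (1.41), Col11a1 and Col28a1 (1.23). The fibril-associated Col12a1 (68.4 against 512 CPM, -2.90, 46 cells -6.08), Col14a1 (-1.90, 46 cells -2.82) and anchoring fibril Col7a1 (-2.88) were lower with Col1a2, Col5a2 and Col6a3. Of 11 small leucine-rich proteoglycans Epyc, which the rule used, Lum, which the gate used, Dcn and Podn (1.85) were higher and Aspn (334 against 1759 CPM, -2.40), Omd (-4.04), Ogn, Kera and Fmod lower.

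Matricellular, remodelling and contractile lists were counted beside the same shares of all genes, 6.45% higher and 13.8% lower. Of 19 matricellular genes 4 were higher and 10 lower, with Thbs4, Thbs1 (1.43), Matn4 (1.52) and Sparcl1 (1.32) on one side and tenascin C, Tnc (-2.17, 46 cells -3.65), Thbs2 (-2.99, 46 cells -4.90), Spon1 (-3.26, 46 cells -5.13) and Postn on the other. Of 15 remodelling genes the gelatinase Mmp2 was higher (1615 against 695 CPM, 1.22) and 8 were lower. The collagenase Mmp13 had no UMI, which against 34.7 CPM allows a log2 ratio of at most -2.86. Of 10 contractile genes none was higher and 5 were lower, including Myl9 (-2.34), while Tpm1 had 0.32.

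Families of Meox1, Etv1 and Tenm2 were counted beside 6.45% higher and 13.8% lower over all genes, and each count includes the rule gene, whose direction the selection set. Of 17 homeobox and mesodermal factors 6 were higher and 5 lower, with a median of 0.21. Next to Meox1, its paralog Meox2 (113 against 33.8 CPM, 1.74), Tbx18 (55.6 against 13.4, 2.05), Osr2, Msx1 (1.48) and Foxd1 were higher, and the mesenchymal factors Prrx1 (-1.57, 46 cells -2.62), Twist2 (-1.01), Osr1 (-1.92) and Foxp1 (-1.66) were among the lower ones. Of 13 genes of ETS factors and their feedback regulators 4 were higher, namely Etv1, Etv4 (54.1 against 4.19 CPM, 3.69), the phosphatase Dusp6 (138 against 38.1, 1.86) and Spred1 (1.42), and Ets1 and Elk3 were lower. Of 7 FGF ligands and receptors Fgf7 (1.90) and the decoy receptor Fgfrl1 (2.46) were higher and Fgf2 and Fgfr2 lower, each of the latter with at most 3 UMIs. Of 9 teneurins, latrophilins and their partners Tenm2 was higher and 5 were lower.

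Relatives of Trf, Apod and Cst6 were counted in the same way, again with the rule gene included and beside 6.45% and 13.8% of all genes. Of 10 iron-handling genes 5 were higher and 1 lower, with a median of 1.15: beside Trf and Cp they were the ferrireductases Steap3 (316 against 93.8 CPM, 1.75) and Steap4 (52.5 against 8.38, 2.65) and the transferrin receptor Tfrc (11 UMIs, 1.76). The ferritin genes Fth1 and Ftl1 had 0.55 and -0.19, and the iron exporter Slc40a1, with 1 UMI, was lower (-3.44). Of 11 lipid carriers 6 were higher and 4 lower, among them the transporter Abca8a (197 CPM, 3.81) and the desaturase Scd1 (2.55), while lipoprotein lipase, Lpl, was lower (-3.11, 46 cells -4.70). Fabp5 went from 1.27 to -2.46 in the 46 cells. There, 5 lipid carriers were higher and 5 lower, beside 7.48% and 15.03% of all genes. Of 10 cystatins and cathepsins Cst6, Cst3 (1.01) and Ctsb (3517 against 1269 CPM, 1.47) were higher and Ctsh lower (-1.27).

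Gcg lies on chromosome 2 at 62474530 to 62483650 (minus strand, GRCm38), 17.3 kb from Fap and 62.3 kb from Dpp4, so its neighbours were read beside it. Fap, a fibroblast protease, stood at 119 against 70.0 CPM (0.77), Dpp4 at 27.0 against 34.5 CPM (-0.35) and Ifih1 had -1.02 with 5 UMIs. The glucagon and incretin receptor genes Gcgr, Glp1r and Glp2r and the processing enzymes Pcsk1 and Pcsk2, which cut proglucagon into its hormones, had no UMI in the rule cells. Of the 4 tested genes of this list the one higher was Gcg itself, which the rule used, and the one lower was Ifih1.

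Over all genes tested, 6.45% were higher and 13.8% lower, beside which the signalling lists were counted. Of 9 Hedgehog genes the targets Gli1 (11 UMIs, 17.5 against 4.61 CPM, 1.92, interval 0.86 to 2.84) and Ptch1 (29 UMIs, 46.1 against 11.4 CPM, 2.01, 1.40 to 2.58) were higher. The co-receptors Gas1 (-2.37, 46 cells -5.71), Boc (-2.72, 46 cells at most -0.88 with 0 UMIs) and Cdon (-2.63) were lower with Gli2 and Gli3, and Smo had 0.23. In the 46 cells 2 Hedgehog genes were higher and 3 lower, beside 7.48% and 15.03% of all genes there. Of 17 Wnt genes Wif1 was higher and 10 were lower, among them the secreted Sfrp2 (36.6 against 635 CPM, -4.12, 46 cells -7.39), the target Axin2, with 1 UMI, and Wnt5a (-1.62). Of 20 BMP and TGF-beta genes Bmp7 and Tgfbi were higher and 5 were lower, including follistatin, Fst (-3.10, 46 cells -4.59), and Bmp1 (-1.98), while the BMP targets Id1, Id2 and Id3 had 0.61, -0.08 and 0.06.

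Counts for the IGF and chemokine lists, beside 6.45% higher and 13.8% lower over all genes, depended on the cells compared. Of 10 IGF genes Igf1 (1563 against 329 CPM), Igf2, Igfbp4 and Igfbp6 were higher and Igfbp2, Igfbp3 and Igfbp5 lower. In the 46 cells 4 were higher and 5 lower, beside 7.48% and 15.03% of all genes there. Against the Dcn-rich fibroblasts 2 were higher and 3 lower, beside 7.44% and 12.1% of all genes there. Of 15 complement and chemokine genes 6 were higher and 3 lower (4 and 4 against the Dcn-rich fibroblasts), and Ccl2, a monocyte chemokine, led with 3416 against 780 CPM (2.13). It ran from 0 to 288 UMIs per 10000 with a median of 22.5. Of 18 neurotrophic genes 2 were higher, the neurotrophin receptor Ntrk2 (132 against 17.7 CPM, 2.90) and the GDNF co-receptor Gfra1 (60.4 against 11.4, 2.40), and 9 were lower, including the guidance cue Sema3c (-2.60).

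Proliferation and stress genes were read beside 6.45% higher and 13.8% lower over all genes. Of 18 cell cycle genes none was higher and 3 were lower, a share near that of all genes, with a median of -0.41. In the 46 cells, where 15.03% of all genes were lower, 13 were lower and the median was -2.27, so most of these UMIs lay in the lone barcodes. For Birc5, a mitotic survivin, the log2 ratio went from -0.86 to -5.25. Of 18 immediate early and stress genes Atf3 and Zfp36 were lower and none was higher, with a median of -0.19, while against the Dcn-rich fibroblasts 2 were higher and 1 lower, beside 7.44% and 12.1% of all genes there. The mitochondrial share of UMIs was 2.08% in the rule cells and 2.41% in the others.

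The rule cells differed among themselves in Trf. With at least 2 Trf UMIs, 22 cells were set beside the other 28, at median depths of 12963.5 and 12574.5 UMIs. Wif1 reached at least 2 UMIs in 17 of the 22 and 6 of the 28, at 663 against 182 CPM, a log2 ratio of 1.86 that was 1.41 without the lone barcodes. Apod stood at 20792 against 4416 CPM (2.24, and 1.82) and Ccl9 at 891 against 169 CPM (2.40, and 1.95). Cst6 differed by 0.88 (0.47 without the lone barcodes), Meox1 by 0.29 (-0.11) and Tgfbi by 0.09 (-0.31). The 6 Epyc cells held Trf at 95.6 CPM against 1003 CPM in the other 44, a log2 ratio of -3.39 (-4.61 to -2.40). Trf was detected in 2 of these 6 cells and in 22 of the 44. A single cell held 237 of the 547 Trf UMIs of the 44, a spread between cells that the counting interval does not cover. For Meox1 the log2 ratio was 0.73 and for Apod 0.14. The other 44 included the 4 lone barcodes, which held 1 to 31 Apod and 0 to 2 Meox1 UMIs each. No direction is therefore read for Apod or Meox1. These splits were made on the values seen, and no test was run.

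**Figure D5:**
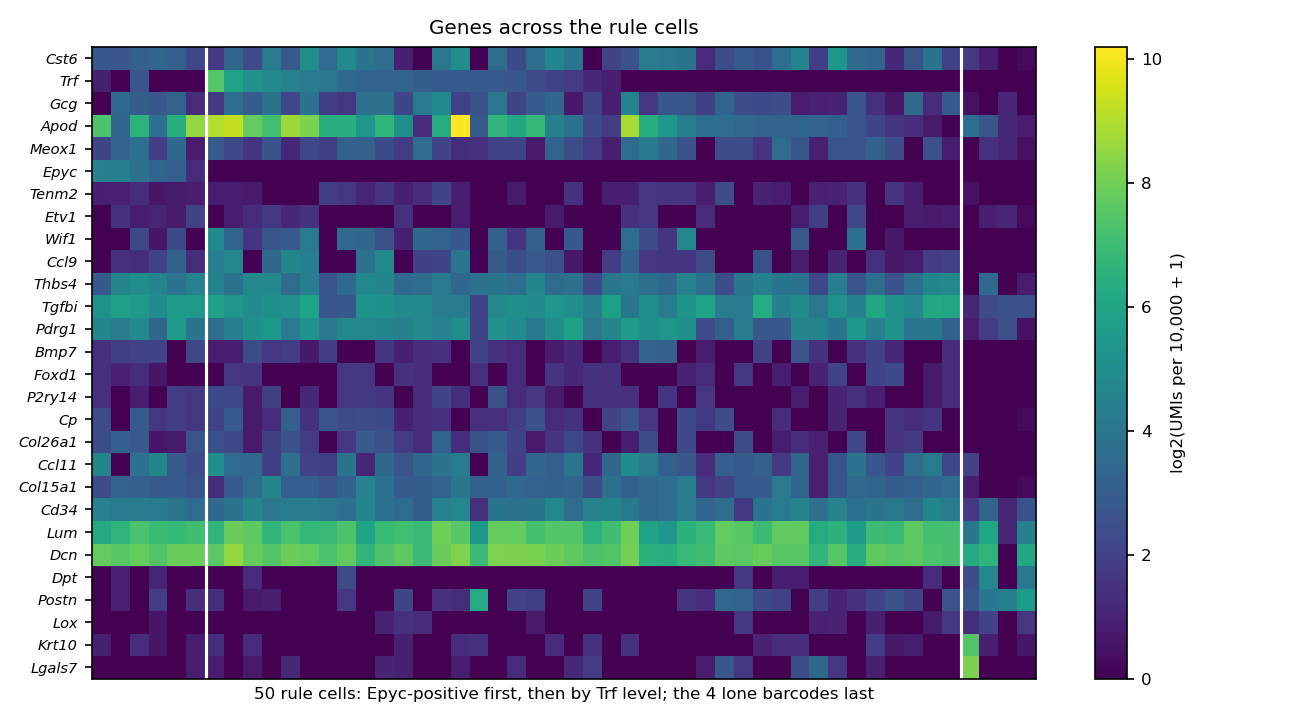
UMIs per 10000 on a log scale for the rule genes and other genes in each of the 50 rule cells on the horizontal axis, with the 6 Epyc cells first, the rest by Trf level and the 4 lone barcodes last (white lines). Wif1 and the highest Apod values lie mostly in the Trf cells, Thbs4 and Tgfbi are spread over nearly all, and the lone barcodes hold Postn, Dpt or Krt10.

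By sex-linked transcripts, a cell with Y-linked UMIs and no Xist was called male and one with Xist alone female. Of the rule cells 38 were male, 0 female, 3 had both and 9 neither. The 3 with both included the keratinocyte-rich barcode and the lone barcode of 8598 UMIs. A count of 0 of 38 allows a female share of up to 7.89% (3 counts), and the exact interval reached 9.25%. Of the other control fibroblasts 836 were male and 354 female, a female share of 29.7% (27.2 to 32.4%). The share was not even among them. The cluster led by Agtr2 and Angptl1 held 59 male and 0 female cells, that led by Pi16 and Wnt2 125 and 3. That led by Ptgs2 and Il11 held 84 and 1. Other clusters were less male: that led by C4b and Mlana held 4 male and 22 female cells, and that led by Gbp2 and Gfra3 57 and 57. The animals behind the cells are not told apart otherwise, so how many mice the rule cells came from is not known.

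In the SM22-SmoM2 library 1802 barcodes gave 1792 cells and 1090 fibroblasts, of which 4 met the rule, or 0.367% (0.100 to 0.937%). Thinned to 3000 UMIs, 3 of 1061 did, or 0.283% (0.0583 to 0.824%), beside 2.03% in the control library. With 1 pooled library each, genotype, mice, preparation and library cannot be told apart in this difference. The 4 cells held 4229, 5090, 7835 and 9435 UMIs and 6, 6, 8 and 4 rule genes. Their Trf UMIs were 21, 17, 4 and 1, their Apod UMIs 28, 33, 53 and 1 and their Epyc UMIs 4, 3, 13 and 0. Wif1 had 8, 7, 5 and 2 UMIs in them and Thbs4 2, 2, 18 and 0. The first 3 cells therefore held Trf, Apod and Epyc together. The last held 1 UMI of each rule gene detected and was the only one with Postn, at 12 UMIs. Wif1 was common in this library: its other 1086 fibroblasts held 212 CPM, against 827 CPM in the 4 cells. Tagln, low in the control rule cells, had 14 UMIs in the 4 cells, 527 CPM against 191 in the other fibroblasts. Crabp1, also low there, had 0 UMIs in the 4 cells against 390 CPM.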

How the data were processed

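Whole UMI counts per gene and cell were deposited by the authors without normalization, for 1 control and 1 SM22-SmoM2 library. The submitters' processing notes name bcl2fastq, Cell Ranger and mm10, and the strand counted, the annotation and the cell calling are not given in the sources used here. The control library had 3128 to 65167 UMIs per barcode and a median of 8607.5 in cells kept, and the SM22-SmoM2 library 2538 to 38806 and 8837.5. The barcode list holds all 737280 entries of the kit and was not used, so barcodes shared between the libraries could not be counted. Preparation times and the end of doxycycline feeding are described differently in different sources.

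UMIs were summed over cells and scaled to 1000000 (CPM). Exact Poisson, binomial and conditional intervals are at 95%. A gene was tested with at least 50 UMIs over both groups and counted as higher or lower at 2-fold. A count of 0 was replaced by 3 UMIs over the group, and no ratio is given where both counts were 3 or fewer or where the bound held no information. With 1 library per group there are no p-values. Named genes were the rule and gate genes, the 20 highest and 12 lowest log2 ratios with the same direction in male cells, and the same ranking against Dcn-rich cells or without 1 barcode. The same direction in female cells was also required, which could not be applied as 0 rule cells were female. Members and all 40 gene lists were chosen with earlier results of these data known. Clusters came from k-means (K = 15) on 20 principal components of 2000 variable genes. Doublets were sought with Scrublet in scanpy 1.11.5 and kept, since 0 rule cells were marked. Gene positions are from GENCODE M21. Python 3.11.15, numpy 2.4.6, scipy 1.17.1, pandas 2.3.3, scikit-learn 1.9.0 and matplotlib 3.10.9 were used, and the steps were tested on simulated data. Alternatives changed thresholds, depth, sex, clustering and the cells compared. Some genes of the lists and rankings are not reported here, although counts and medians over the lists include them.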

Additional observations from a re-analysis of the deposited data

How the results depend on the processing

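The number of rule cells was 50 and became 32 with counts thinned to 3000 UMIs before the rule, 33 with cells of 10000 to 20000 UMIs only, 78 with 3 or more rule genes and 0 in female cells only. The 1497 lower genes became 909 with 3 or more rule genes. The 702 higher genes ranged from 494 to 1048 over the other settings, and the share of rule cells in 1 cluster was 88 to 92%. The causes were not tested, apart from the cells and genes each alternative adds or removes. With 5 or more rule genes, which moves the keratinocyte-rich barcode to the other fibroblasts, the log2 ratios of BC100530 (-2.43), Stfa3 (-2.31), Ly6d (-1.84) and Krt1 (-2.49) reversed. Over 48 named genes and 17 settings, 714 of 719 values kept their direction, and the 5 exceptions were of these 4 genes and Rgs5. The named genes were rule or gate genes or were picked for extreme ratios in these cells. That choice largely set their direction in advance, so nothing is read from this count. In size, 164 values left the counting interval of the reported ratio. Anks1b, at 4.92, had 3.35 with the same cells thinned and 1.69 thinned before the rule. Some 2-fold calls ended: with 3 or more rule genes Eln had -0.28, Egfl8 -0.35 and Fgf5 -0.77. The leave-out of keratinocyte-rich and lone barcodes and the Dcn limit were chosen after seeing the data. No paired analysis was possible because each group had 1 library.

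One pooled library per group limits every value to counting error. Genes with few UMIs in the 50 cells have wide intervals, and low levels in single cells lie near 1 UMI. The other fibroblasts are a mixed group, part of it rich in Schwann genes. Free RNA and reads shared between overlapping or paralogous genes were not removed. Trf, Apod and Epyc levels rest on few cells.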

Other observations

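Some genes outside the tests above, chosen after their values had been seen, were low in the other control fibroblasts. Corin, a protease of the dermal papilla, had 23 UMIs in 19 of the 50 rule cells and 1 UMI in the other 1529 control fibroblasts, 36.6 against 0.0607 CPM, with a highest count of 2 UMIs in a cell. Of 6 tested genes of the dermal papilla list, which includes Corin, 1 was higher and 1 lower, beside 6.45% and 13.8% of all genes. The median log2 ratio of that list was -0.58, and its members Sox18 and Rspo3 had no UMI in the rule cells. Foxc2, a forkhead factor, stood at 33.4 against 1.21 CPM with 21 UMIs, and Foxp2 at 22.3 against 1.09 CPM with 14 UMIs. The netrin receptor Unc5a had 13 UMIs in the rule cells, 20.7 against 0.729 CPM.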
